A study of Mus musculus with 4 samples.

Results

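Ctla2a and Ctla2b, a pair of neighbouring mouse genes, were followed in 4 single-cell libraries of CD45+ leukocytes from mouse hindpaws. Their rows, 2 of the 32285 genes measured, were read in all 4 libraries. The genes were chosen by their levels over all cells and in group 2 innate lymphoid cells (ILC2) of these same diabetic and wild-type libraries, so those values describe the choice and were not tested. The diabetic mice (DB) were males homozygous for the Lepr db mutation on the C57BLKS/J background, which lack working leptin receptor signalling and become obese and hyperglycaemic. Their wild-type littermates (WT) were the comparison, at 12 and at 21 weeks of age, and libraries are named by age and genotype (21-week-DB). Paws were digested with collagenase, CD45+ cells were sorted, and the cells of several mice were pooled into 1 library per condition for 10x Genomics 3 prime sequencing. Differences between conditions therefore have no replicate check. Where 4 values follow each other below, they stand for WT then DB of the younger mice and WT then DB of the older mice. The db mutation alters splicing of Lepr, so counts at the 3 prime end do not check the genotype labels.

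Ctla2a and Ctla2b encode small proteins that resemble the propeptide of cathepsin L, the stretch that keeps this lysosomal cysteine protease inactive until it is cut off. CTLA-2 alpha, the Ctla2a product, inhibits cathepsin L-type proteases. The genes were found through activated T cells and mast cells, and CTLA-2 alpha has been tied to TGF-beta and regulatory T cells. ILC2 are tissue-resident lymphocytes without antigen receptors. They depend on the transcription factor Gata3 and release IL-5 and IL-13.

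Both genes lie on the minus strand of chromosome 13. In the GENCODE annotation of GRCm38, Ctla2a (ENSMUSG00000044258) spans chr13:60934155-60936625 and Ctla2b (ENSMUSG00000074874) spans chr13:60895350-60897447, with 36707 bases between them that hold Tpbpb and Gm24594. The coding transcript of Ctla2a has 5 exons and 1373 bases. The longer coding transcript of Ctla2b has 4 exons and 1094 bases. Their aligned stretch is identical at 621 of 662 bases (93.81%), so the 250 bases before each annotated start are shown for comparison. They come from RefSeq (GRCm38.p6), chr13:60936626-60936875 for the first of 2 listed Ctla2a starts and chr13:60897448-60897697 for Ctla2b. Both are on the minus strand and written 5 prime to 3 prime. Capitals mark 3 motifs searched on both strands, those of AP-1, of the cAMP response element without its last base, and of the TATA box.
Ctla2a: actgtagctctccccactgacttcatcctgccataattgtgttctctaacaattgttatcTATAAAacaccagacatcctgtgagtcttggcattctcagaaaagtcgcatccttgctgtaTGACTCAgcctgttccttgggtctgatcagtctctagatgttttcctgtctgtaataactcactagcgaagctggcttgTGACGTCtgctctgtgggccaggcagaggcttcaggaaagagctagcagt
Ctla2b: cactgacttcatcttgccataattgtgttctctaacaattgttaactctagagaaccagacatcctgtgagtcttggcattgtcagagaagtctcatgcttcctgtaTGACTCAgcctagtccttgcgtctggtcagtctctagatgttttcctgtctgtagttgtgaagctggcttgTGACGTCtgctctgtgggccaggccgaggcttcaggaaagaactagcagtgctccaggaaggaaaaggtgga
The windows aligned with 208 identical bases of 228 (91.23%). The AP-1 letters TGACTCA began 129 bases before the Ctla2a start and 143 bases before the Ctla2b start, and stood on either strand in 4.46% of 32851 mouse promoter windows of this length. The cAMP response element letters TGACGTC began 50 and 72 bases before the starts and stood in 2.78% of windows. The TATA box letters TATAAA were in the Ctla2a window only, 190 bases before the start, against 12.4% of windows. The GATA letters AGATAA, searched on both strands, were in the Ctla2a window only, on the reverse strand from 195 bases before the start and overlapping TATAAA by 1 base, against 9.99% of windows. GGAAA was in both windows and in 55.6% of all. These are matches of letters and not shown binding sites.

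Because the transcripts are alike, the separation of their counts was checked. Of the 50-base stretches of Ctla2a, 94 of 1324 (7.1%) were also in Ctla2b, and 164 of 1045 stretches of Ctla2b (15.69%) were in Ctla2a. In the last 400 bases of the transcripts, where 3 prime libraries read, 0 of 351 stretches were shared. Reads further upstream can match both genes, so small Ctla2b values beside large Ctla2a values are less certain.

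Of 30793 barcodes, 27800 were kept as cells because they showed 200 genes or more and no more than 10% of their unique molecular identifiers (UMIs, 1 per captured transcript) came from mitochondrial genes. The libraries held 5271 to 8707 kept cells and 46435961 to 67723605 UMIs, with median UMIs per cell from 5355 in 21-week-DB to 8000.5 in 21-week-WT. Of the barcodes kept, 237 stood in more than 1 library, 146 of them in both 21-week libraries. Levels are given as CPM, the UMIs of a gene in every 1000000 UMIs of the cells concerned, with exact 95% intervals of the Poisson count. Shares have exact 95% binomial intervals, and all intervals cover counting error only. Cells were placed in 19 types by marker genes, and each name below stands for its gate. A cell was gated as ILC2 when it had at least 3 of 12 ILC2 markers and a UMI of Gata3 or Hlf, with no T, NK, mast or myeloid profile. All 12 markers were higher in gated ILC2 than in the other cells of every library, which the gate itself favours. The number of markers that were highest in ILC2 among the types was 6, 7, 7 and 4. The genes by which the gate excludes other types were low in ILC2 of every library, which does not check the gate. They summed to 22.98 to 25.87 CPM over 4 T cell receptor and CD3 genes and 12.2 to 33.19 CPM over 5 mast cell genes. Sums were 2.477 to 5.863 CPM over 7 NK genes and 38.85 to 91.64 CPM over 3 macrophage genes. T cell genes outside the gate were not all low. Trbc1 was 355.2, 359.3, 352.5 and 330.1 CPM in ILC2, against 400.8, 348.5, 460 and 369.6 CPM in alpha-beta T cells. In ILC2, Trbc2 was 209 to 247.7 CPM and Cd3g 51.15 to 62.62 CPM. Neither Ctla2 gene was used in a gate.

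Over all kept cells, both genes were higher in DB than in WT at both ages. The Ctla2a level was 251.1 CPM (WT) and 554.2 CPM (DB) at 12 weeks, and 310.2 CPM (WT) and 1382 CPM (DB) at 21 weeks. The Ctla2b level was 41.07, 63.73, 26.79 and 124.9 CPM in the same order. The 21-week-DB library was the highest for both genes, and the lowest was 12-week-WT for Ctla2a but 21-week-WT for Ctla2b. The share of cells with a Ctla2a UMI was 26.11%, 42.22%, 30.23% and 59.61%, and with a Ctla2b UMI 16.39%, 21.69%, 13.12% and 30.27%. At 21 weeks the ratio of DB to WT was 2.16 (95% interval 2.13 to 2.18) on the log2 scale for Ctla2a, and 2.22 (2.15 to 2.30) for Ctla2b. At 12 weeks it was 1.14 (1.11 to 1.17) and 0.63 (0.55 to 0.71). Thus 2 of 2 genes were at least 2-fold higher in 21-week-DB, where 9.55% of 14665 genes were, and 1 of 2 in 12-week-DB, where 1.81% of 14402 were. These comparisons chose the genes, so nothing is read from the counts.

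The genes were most abundant in lymphoid cells and mast cells. For Ctla2a, among 13 types with at least 20 cells in every library, the 2 highest in each were ILC2 and dendritic epidermal T cells (DETC, gamma-delta T cells of the epidermis, gated by Trdc with Cd7 and Fcer1g). DETC led at 12 weeks and ILC2 at 21 weeks. With cells thinned to 2000 UMIs, DETC led in 21-week-WT too, with 2631 CPM against 2423 CPM in ILC2. NK cells came next, and the Ctla2a intervals of alpha-beta T cells, mast cells and regulatory T cells (Treg) overlapped in part, as between mast cells and Treg in 12-week-DB (681.6 and 621.6 CPM). For Ctla2b the order in every library was DETC, NK cells, ILC2. The NK and ILC2 intervals overlapped at 21 weeks, with 145.2 (118.4 to 176.2) and 118.9 (108.8 to 129.7) CPM in WT.

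**Figure D1:**
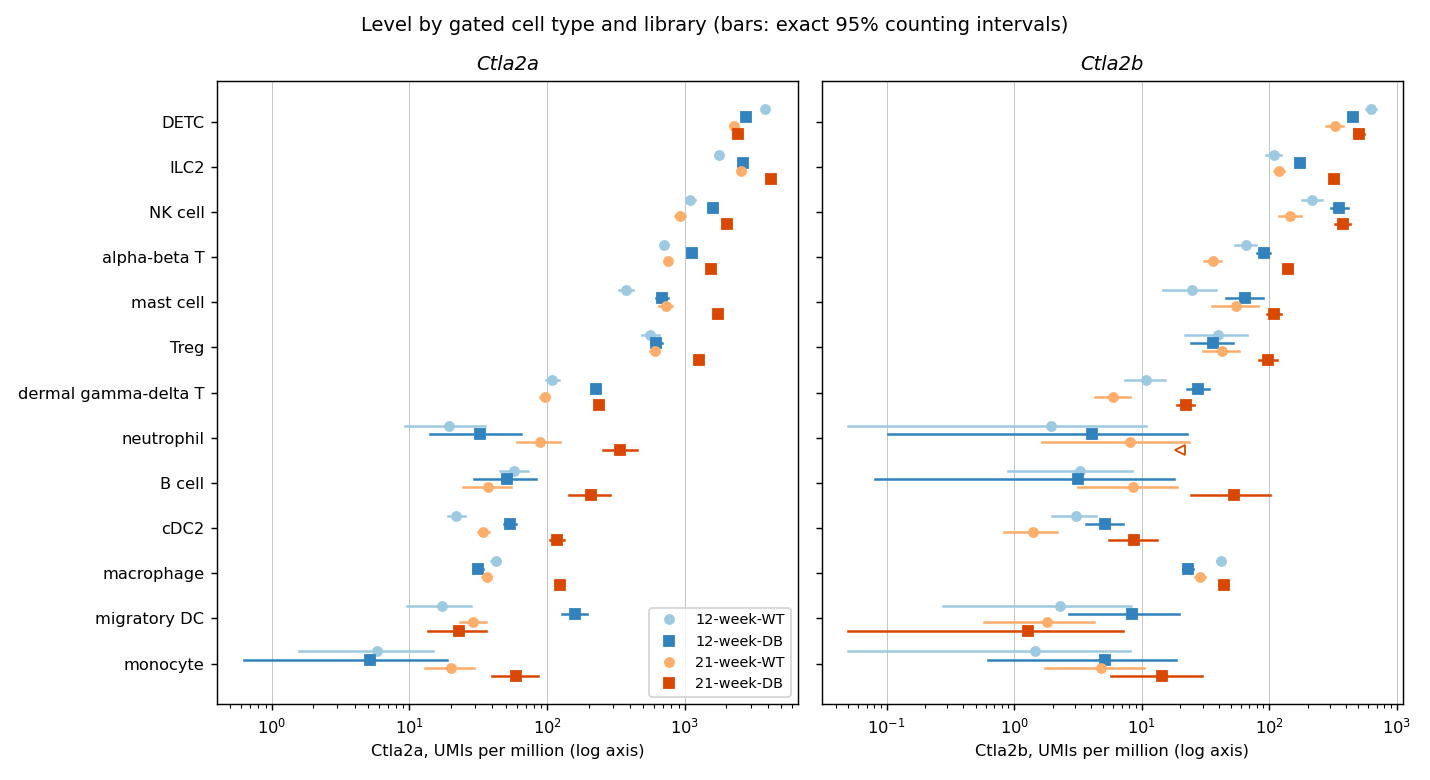
Ctla2a (left) and Ctla2b (right) in CPM on a log axis for the gated types with at least 20 cells in every library, 1 point per library with its exact 95% counting interval. An open triangle marks 0 UMIs, drawn at the level of 3 UMIs. ILC2 and DETC stand highest for Ctla2a, up to 4229 CPM in 21-week-DB ILC2, and DETC stand highest for Ctla2b.

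ILC2 carried the most Ctla2a UMIs of any gated type. At 12 weeks their Ctla2a level was 1766 CPM (1708 to 1825) for WT from 299 cells and 2640 CPM (2594 to 2687) for DB from 719 cells. At 21 weeks it was 2552 CPM (2504 to 2600) for WT from 589 cells and 4229 CPM (4192 to 4267) for DB from 1916 cells. The 21-week-DB library was highest, and 12-week-DB and 21-week-WT lay close together. DB exceeded WT by 0.58 (0.53 to 0.63) on the log2 scale at 12 weeks and by 0.73 (0.70 to 0.76) at 21 weeks. Between ages, 21 weeks exceeded 12 weeks by 0.53 in WT and by 0.68 in DB.

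At 12 weeks the Ctla2b level of ILC2 was 108.5 CPM (94.59 to 123.8) for WT and 172.9 CPM (161.2 to 185.3) for DB. At 21 weeks it was 118.9 CPM (108.8 to 129.7) for WT and 320.1 CPM (309.9 to 330.6) for DB. The WT libraries overlapped and 21-week-DB stood apart. The log2 ratio of DB to WT was 0.67 (0.46 to 0.89) at 12 weeks and 1.43 (1.29 to 1.57) at 21 weeks. Between ages it was 0.13 (-0.10 to 0.37) in WT and 0.89 in DB. In ILC2, 0 of 2 genes were at least 2-fold higher in 12-week-DB (1.30% of 8902 genes were) and 1 of 2 in 21-week-DB (4.05% of 10209), and again nothing is read from counts that the choice of genes touched. Among 1519 genes of at least 100 CPM in either 21-week ILC2 library, Ctla2b had the 11th largest ratio and Ctla2a the 92nd. The 5 largest were those of Calca, the CGRP neuropeptide gene (2.85), the heat shock gene Hspb1 (2.18), the histone gene Hist1h2bc (2.08), the chemokine gene Cxcl1 (2.00) and Gm12840 (1.90). The 5 smallest were those of Gm15564 (-4.46), the chemokine gene Ccl3 (-2.82), the MHC class II genes H2-Aa (-2.42) and Cd74 (-2.23), and Stmn1 (-2.25), a microtubule regulator.

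The higher level in 21-week-DB ILC2 was spread over the cells. Each ILC2 was thinned to 2000 UMIs so that depth was equal, which left out 3, 11, 14 and 73 shallower cells. The median was then 2.5, 4, 4 and 6 Ctla2a UMIs per cell, and the 90th percentile was 9, 11.3, 11 and 17. Cells with a Ctla2a UMI made up 75%, 84.04%, 86.96% and 93.11% after thinning and 85.95%, 91.66%, 93.55% and 96.56% before. For Ctla2b they made up 17.57%, 23.59%, 19.3% and 39.83% after thinning and 39.13%, 45.76%, 43.29% and 66.02% before. After thinning, a Ctla2b UMI was found in 20.72%, 27.06%, 21% and 42.31% of ILC2 with Ctla2a and in 8.108%, 5.31%, 8% and 6.299% of those without.

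**Figure D2:**
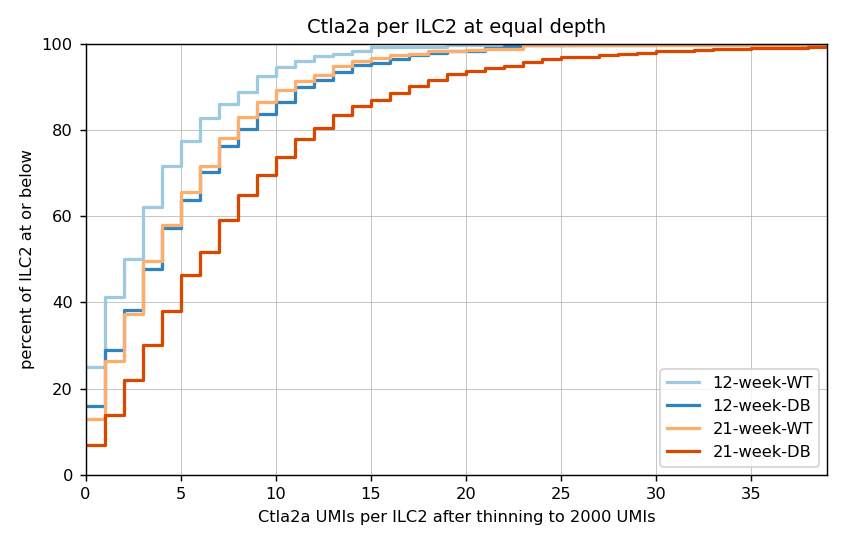
Percent of ILC2 (vertical axis) with at most the number of Ctla2a UMIs on the horizontal axis, after each cell was thinned to 2000 UMIs, 1 line per library. The 21-week-DB line lies to the right of the others, with a median of 6 UMIs against 2.5 to 4.

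Within ILC2, the levels were compared by Il13, the gene of the ILC2 cytokine IL-13. Ctla2a was 1651, 2360, 2650 and 4027 CPM in cells with an Il13 UMI and 1866, 2762, 2480 and 4331 CPM in cells without one. Cells without Il13 were higher except in 21-week-WT, and in all 4 libraries the gap was smaller than that between 21-week-DB and 21-week-WT. The 12 gate markers summed to 5804, 5516, 5701 and 5691 CPM in ILC2, close to level over the libraries, but moved singly. At 21 weeks the ratio was 0.81 for Il5, above that of Ctla2a, 0.16 for Il13, -0.12 for Gata3 and -0.53 for Il1rl1, the IL-33 receptor gene. Lmo4 (0.75) and the IL-7 receptor gene Il7r (0.60), named after their values were seen, were higher in DB as well. So were Areg (242.3 CPM in WT and 330 CPM in DB) and Icos (259.6 and 290.4 CPM). Hlf (813.6 and 420.1 CPM) and Rora (1228 and 858.6 CPM) were lower in DB. The remaining gate markers, Klrg1 (36.35 and 30.37 CPM) and Il17rb (25.56 and 10.73 CPM), were lower too. Free RNA, estimated from 5 myeloid genes, would give ILC2 7.455 to 29.62 CPM of Ctla2a. Mitochondrial share moved with the groups: the median in ILC2 was 4.913%, 4.143%, 5.532% and 3.103%. Its part in the Ctla2 levels was not tested. With a limit of 5%, the 21-week ratios of ILC2 were 0.82 for Ctla2a and 1.73 for Ctla2b.

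The share of ILC2 among kept cells was higher in DB as well. It was 5.673%, 10.97%, 8.102% and 22.01% of the 4 libraries, a DB to WT ratio of 1.93-fold (1.69 to 2.22) at 12 weeks and of 2.72-fold at 21 weeks, or 1.44 (1.31 to 1.58) in log2. These are shares of sorted barcodes and not numbers of cells per paw. With at most 5% mitochondrial UMIs the 21-week shares were 3.877% and 21.24%, a log2 ratio of 2.45. That limit was met by 34.47% of 21-week-WT ILC2 and 88.83% of 21-week-DB ILC2, against 72.02% and 92.04% of all kept cells. Mast cells, which also hold Ctla2a, made up 5.9%, 4.212%, 2.765% and 14.1% of kept cells.

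The differences over all cells were split into a term for each type's share of UMIs and a term for the level within the type, averaged over both orders of exchange. At 21 weeks the Ctla2a difference of 1072 CPM held 575.4 CPM (53.69%) of share terms and 496.3 CPM (46.31%) of level terms. Ungated cells and cells of several lineages were counted like types, with 63.97 and 8.256 CPM of the level terms. A change of mix within them enters as level. ILC2 alone gave 506.5 CPM by share and 230.9 CPM by level, 68.8% of the difference together. Alpha-beta T cells came second with 28.28 and 66.17 CPM, and mast cells gave 41.48 and 23.83 CPM. For Ctla2b the difference of 98.12 CPM leaned to level, with 40.62 CPM (41.39%) of share terms and 57.51 CPM (58.61%) of level terms, of which ILC2 gave 32.79 and 27.7 CPM. With the type shares of 21-week-DB and the levels of 21-week-WT, Ctla2a would be 758.2 CPM and Ctla2b 50.26 CPM. With the shares exchanged the other way they would be 679.2 and 67.15 CPM.

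At 12 weeks share terms were the larger part. The Ctla2a difference of 303.1 CPM held 221.2 CPM (72.99%) of share terms and 81.86 CPM (27.01%) of level terms. DETC gave the largest share term, 115.2 CPM, with -34.79 CPM by level. ILC2 gave 89.65 CPM by share and 55.81 CPM by level. For Ctla2b the share terms of 24.98 CPM exceeded the difference of 22.66 CPM, and level terms summed to -2.318 CPM. DETC gave 18.83 CPM by share and -5.843 CPM by level, and ILC2 gave 5.725 and 4.112 CPM. Macrophages gave -0.2096 CPM by share and -6.455 CPM by level, the lowest level term of any type. ILC2 held 30.57%, 40.1%, 51.8% and 64.98% of all Ctla2a UMIs and 11.48%, 22.84%, 27.95% and 54.42% of all Ctla2b UMIs. The ILC2 part was thus largest in 21-week-DB for both genes. At 12 weeks DETC held more of the Ctla2b UMIs than ILC2, 23.86% in WT and 35.75% in DB. Macrophages held 35.4%, 12.35%, 27.78% and 8.854% of the Ctla2b UMIs, the largest part of any type in 12-week-WT.

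**Figure D3:**
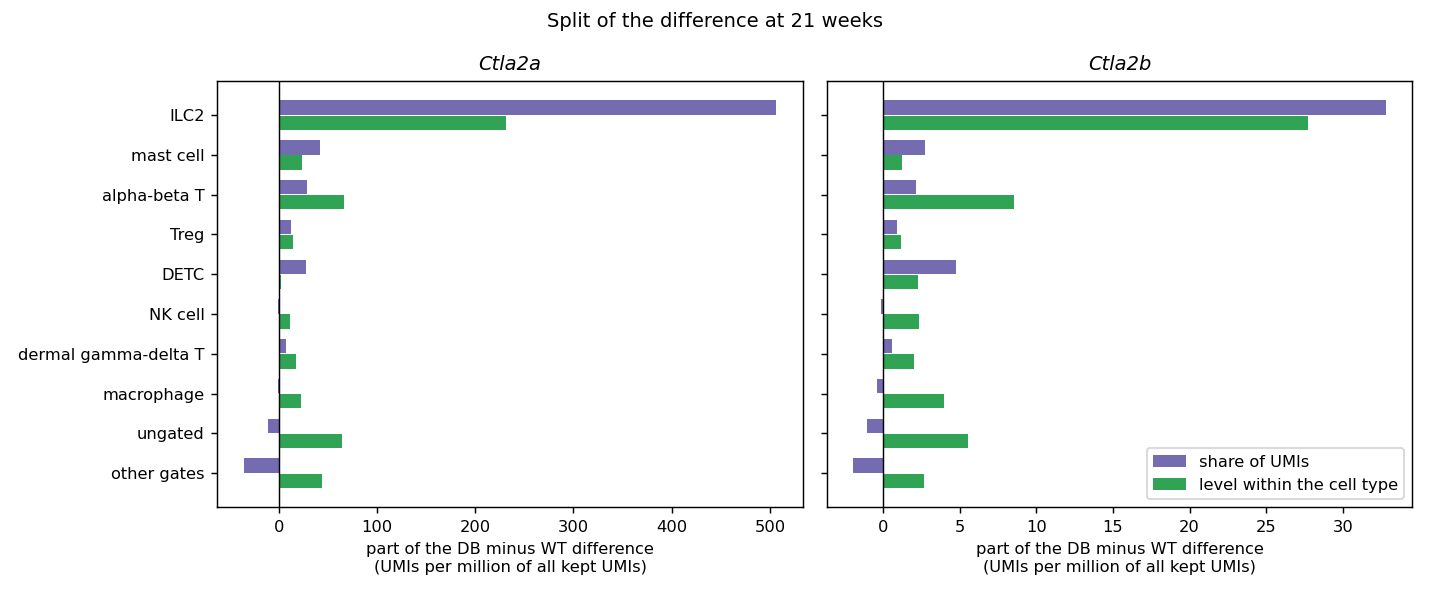
Parts of the 21-week DB minus WT difference in CPM over all kept cells, for Ctla2a (left) and Ctla2b (right), by share of UMIs and by level within each type. The ILC2 bars are the longest, 506.5 and 230.9 CPM for Ctla2a and 32.79 and 27.7 CPM for Ctla2b, and the axes differ between panels.

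Outside ILC2, most types with enough cells also had higher levels in 21-week-DB. Of 13 types with at least 20 cells in every library, ILC2 among them, Ctla2a was higher in DB in 12 at 21 weeks, all with an interval above 0. At 12 weeks it was higher in 9, of which 7 had an interval above 0, while 2 of the lower types had an interval below 0. Among the types with little Ctla2a the direction depended on processing in neutrophils and migratory dendritic cells. At 21 weeks neutrophils had 88.27 CPM (WT) and 339.0 CPM (DB), but 47.14 and 39.45 CPM once free RNA was subtracted. After thinning they had 72.29 and 133.3 CPM. In 12-week-DB neutrophils the subtraction gave -53.69 CPM, a level that cannot occur. Migratory dendritic cells, the type that was lower, had 29.09 CPM (WT) and 22.89 CPM (DB), but 21.08 and 55.56 CPM after thinning, from only 166 and 45 cells. Macrophages (28.77 and 93.27 CPM), monocytes (27.34 and 113.2 CPM) and B cells (20.35 and 134.1 CPM) stayed higher in DB after thinning. Ctla2b was higher in 11 of 12 types with a ratio at 21 weeks, 10 of them with an interval above 0. At 12 weeks it was higher in 9 of 13, with 6 intervals above 0 and 2 below 0. All these types are part of the all-cell levels that chose the genes, and other genes were not counted this way, so nothing is read from these counts of types. Without gated ILC2 the 21-week ratios over the remaining cells were 1.95 for Ctla2a and 1.81 for Ctla2b in log2. The remaining cells are not free of ILC2-like cells. Of 597 (WT) and 2067 (DB) cells in ILC2 clusters made without the gates, 525 and 1811 were gated as ILC2. Ungated cells had 211.1 CPM (WT) and 894.5 CPM (DB) of Ctla2a, and the share of mast cells differed as well. ILC2 markers were highest in 21-week-DB in several types. The 12 markers summed to 1052, 1385, 1153 and 1981 CPM in NK cells, 2616, 2899, 2781 and 3292 CPM in alpha-beta T cells, 2399, 2383, 2323 and 3077 CPM in mast cells, and 224.8, 253.0, 280.6 and 378.7 CPM in macrophages, with at most 3 of the 12 at 0 in any of these. All 4 types were highest in 21-week-DB, as for Ctla2a. The mast cell sums were near level outside 21-week-DB, while Ctla2a there was 375.4, 681.6 and 724.6 CPM. In DETC the markers summed to 1209, 1499, 1787 and 2463 CPM, highest in 21-week-DB, but Ctla2a was highest in 12-week-WT. Areg alone was 370.4, 649.7, 638.8 and 1337 CPM in DETC, while Gata3 was 168.6, 178.9, 123.3 and 72.14 CPM. In NK cells Il7r at 21 weeks was 135.2 CPM (WT) and 543.1 CPM (DB), while Gata3 was 240.6 and 269.7 CPM. Areg (15.66 and 137.6 CPM), Icos (44.13 and 132.1 CPM), Il13 (14.23 and 77.06 CPM) and Il1rl1 (2.847 and 38.53 CPM) were higher in DB. Only Hlf (75.44 and 53.21 CPM) and Klrg1 (59.78 and 5.504 CPM) of the 12 were lower in these NK cells. In alpha-beta T cells Gata3 was 335.1 and 333.1 CPM, and the other markers moved in both directions. Examples are Lmo4 (221.8 and 490.1 CPM), Il7r (326.9 and 674.1 CPM) and Hlf (378.7 and 186.4 CPM). The part of these markers' cells in the Ctla2 levels was not tested.

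In alpha-beta T cells Ctla2a was 702, 1133, 755.5 and 1559 CPM. Their Ctla2b was 65.63, 90.22, 36.23 and 139.9 CPM. Both DB libraries lay above both WT libraries, with 21-week ratios of 1.05 (0.99 to 1.10) and 1.95 (1.71 to 2.20). At 21 weeks 2 of 2 genes were at least 2-fold higher against 3.06% of 9402 genes in these cells. These cells are part of the all-cell levels that chose the genes, so nothing is read from the count. In Treg, the Foxp3-positive T cells, Ctla2a was 563.1, 621.6, 602.8 and 1268 CPM, so only 21-week-DB stood apart, by 1.07 (0.94 to 1.21). The 12-week interval of Treg, -0.10 to 0.39 around 0.14, included 0. NK cells had 1097, 1607, 925.2 and 2033 CPM of Ctla2a and 217.3, 354.4, 145.2 and 376.1 CPM of Ctla2b from 80 to 121 cells, higher in DB at both ages. Dermal gamma-delta T cells had far less, with 109.0, 225.9, 96.46 and 238.6 CPM of Ctla2a.

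Mast cells were shallow, with median UMIs of 1427 to 2079 per cell. Their Ctla2a was 375.4, 681.6, 724.6 and 1753 CPM and their Ctla2b 24.6, 64.83, 55.21 and 108.7 CPM, highest in 21-week-DB for both. The 21-week ratios were 1.27 (1.11 to 1.45) and 0.98 (0.37 to 1.65), and 1 of 2 genes was at least 2-fold higher against 5.05% of 5700 genes. Mast cells are also part of the all-cell levels that chose the genes, so nothing is read from this count.

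DETC went against this pattern at 12 weeks. Their Ctla2a was 3834, 2780, 2264 and 2440 CPM from 120, 471, 61 and 165 cells, and their Ctla2b was 628.8, 451.8, 325.5 and 503.0 CPM. The 12-week-WT library was the highest for both genes. The DB to WT ratio of Ctla2a was -0.46 (-0.53 to -0.40) at 12 weeks and 0.11 (0.01 to 0.21) at 21 weeks. The genes of the DETC gate differed over the libraries as well. Trdc was 1712, 1473, 1264 and 1289 CPM, Cd7 1204, 1082, 568.1 and 764.3 CPM, and Fcer1g 906.6, 911.5, 752 and 945.6 CPM. The part of the make-up of the gated cells in the Ctla2 levels was not tested.

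**Figure D4:**
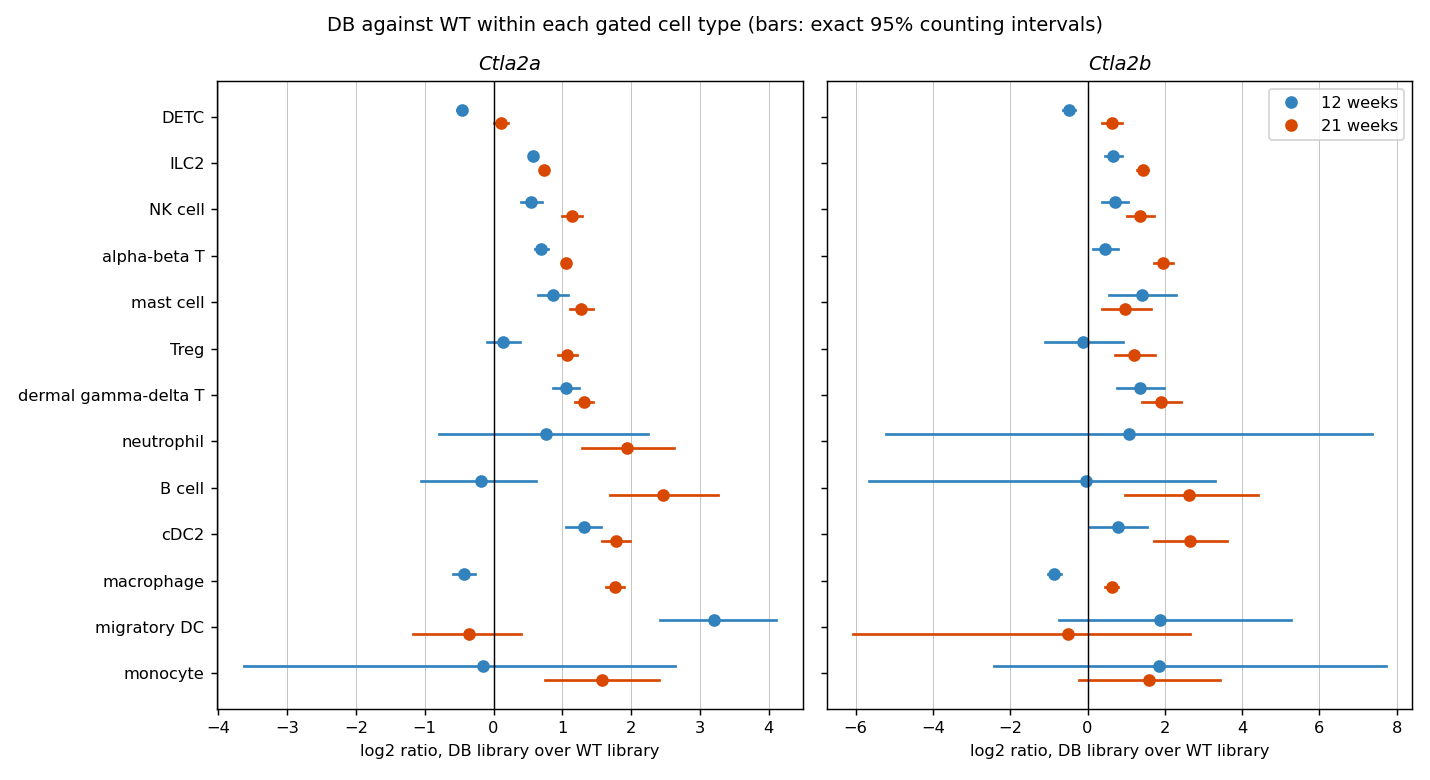
Log2 ratio of the DB library over the WT library at 12 and 21 weeks within each gated type, for Ctla2a (left) and Ctla2b (right), with exact 95% counting intervals. For Ctla2a, 12 of 13 types lie above 0 at 21 weeks, while DETC and macrophages lie below 0 at 12 weeks with their whole interval.

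The lowest levels were set beside those of dendritic cells and B cells, taken here as types with little of either gene, which was not itself tested. Conventional type 2 dendritic cells (cDC2) had 21.85, 54.15, 34.39 and 118.2 CPM of Ctla2a, and B cells 57.77, 51.08, 37.34 and 206.8 CPM. Both were highest in 21-week-DB, the library with the most Ctla2a overall. For B cells of that library the free RNA estimate was 65.63 CPM, less than the level measured. In macrophages Ctla2a was 42.43, 31.51, 36.4 and 123.5 CPM, and after thinning 5.879%, 5.118%, 4.167% and 9.364% of them had a UMI against 1.915%, 4.467%, 3.792% and 10.43% of cDC2 and 6.182%, 4.054%, 3.488% and 14.63% of B cells. Median UMIs were 8703 to 10186 in macrophages and 11526 to 12842 in cDC2. In 21-week-DB the macrophage share (interval 7.871% to 11.03%) lay below both, but the intervals of cDC2 (6.65% to 15.36%) and B cells (5.566% to 29.17%) overlapped it. Only in 12-week-WT did macrophages (4.771% to 7.154%) lie clear of cDC2 (1.023% to 3.252%), and there they overlapped B cells (3.642% to 9.713%). Over all macrophages, therefore, no expression of Ctla2a is read from these shares. Ctla2a was uneven among macrophages, however. Macrophages with a Ctla2b UMI had 102.2, 75.76, 75.95 and 292.1 CPM of Ctla2a and those without 19.26, 22.32, 23.61 and 55.49 CPM, higher with Ctla2b in all 4 libraries, and their median UMIs were 10981.5 to 12656 against 8028 to 9788. Dermal gamma-delta T cells had a Ctla2a UMI in 7.711%, 15.09%, 6.422% and 14.98% of thinned cells, above cDC2 in all 4 libraries but close to B cells in 21-week-DB.

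Ctla2b differed in macrophages. It was 41.81, 23.07, 28.53 and 44.16 CPM there, with a UMI in 7.269%, 4.412%, 5.489% and 6.584% of thinned cells against 0.1473% to 1.422% of cDC2. As a result Ctla2b took 49.63%, 42.26%, 43.94% and 26.35% of the pair's UMIs in macrophages. In ILC2 it took 5.788%, 6.146%, 4.452% and 7.037%, in DETC 14.09%, 13.98%, 12.57% and 17.09%, and in NK cells 16.54%, 18.07%, 13.56% and 15.61%. The share of Ctla2b in ILC2 was lowest in 21-week-WT and highest in 21-week-DB. Macrophages with Vsig4, a complement receptor gene of resident macrophages chosen after its values were seen, had 67.35, 43.56, 45.12 and 72.39 CPM of Ctla2b, and those without it 31.11, 17.23, 18.99 and 22.18 CPM. Their Ctla2a was 61.27, 48.08, 50.39 and 173.4 CPM with Vsig4 and 34.54, 26.79, 28.36 and 84.56 CPM without it. Macrophages with Vsig4 were higher for both genes in all 4 libraries, and they were also deeper, with median UMIs of 9737.5 to 11989 against 8027 to 9863. Vsig4 ranked 1 of 9766 genes by its smallest log2 ratio (1.67), macrophages with a Ctla2b UMI against those without. The higher Ctla2b therefore repeats that ranking and is no separate result. Higher Ctla2b was not particular to Vsig4. Split by Folr2 instead, Ctla2b was 52.87, 31.74, 40.7 and 55.03 CPM with it and 12.96, 9.951, 9.562 and 26.74 CPM without. Split by Lyve1, it was 47.53, 27.51, 37.01 and 48.01 CPM with it and 27.25, 15.01, 12.35 and 33.82 CPM without. Cells with Folr2 or Lyve1 were also deeper in all 4 libraries. By Folr2, Ctla2a was 50.13, 30.95, 40.15 and 103.6 CPM with it and 22.35, 32.37, 30.57 and 155.3 CPM without. By Lyve1, Ctla2a was 39.07, 31.6, 38.47 and 130.1 CPM with it and 50.98, 31.35, 32.45 and 105.5 CPM without. The intervals lay apart in 12-week-WT, lower with Lyve1, and in 21-week-DB, higher with it, and overlapped in 12-week-DB and 21-week-WT.

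**Figure D5:**
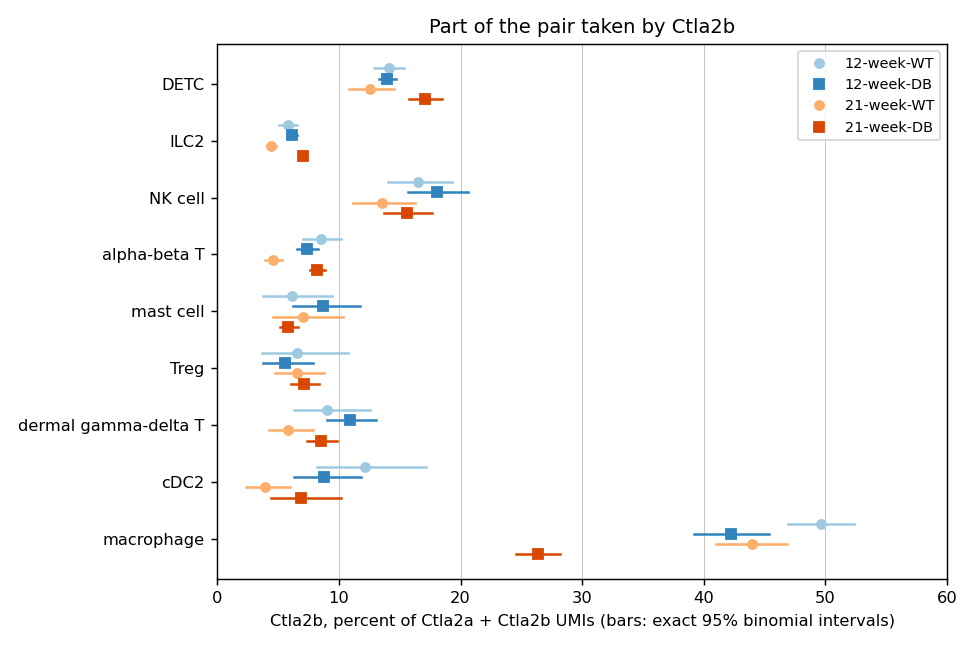
Ctla2b as a percent of the UMIs of both genes (horizontal axis) by gated type, 1 point per library with its exact 95% binomial interval. Macrophages stand apart at 26.35% to 49.63%, and ILC2 lie at 4.452% to 7.037%.

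The few cells gated as endothelial, 22 in all, had 1528, 1712, 67.74 and 4858 CPM of Ctla2a from 5, 7, 8 and 2 cells. They are too few to compare.

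Genes tied to the pair by function were read in ILC2 from lists chosen with earlier results known. Of 11 lysosomal cysteine protease genes, the cathepsins with cathepsin L among them and legumain (Lgmn), 10 reached 50 UMIs in the 21-week ILC2, with 4 higher and 6 lower in DB and a median log2 ratio of -0.26, against -0.04 over all genes. Ctsl, the gene of cathepsin L, was 46.07, 40.66, 29.78 and 76.31 CPM in ILC2, highest in 21-week-DB, with ratios of -0.18 (-0.55 to 0.19) at 12 weeks and 1.36 (1.09 to 1.64) at 21 weeks. Ctsk, a collagen-degrading cathepsin, was higher by 1.22 (0.24 to 2.35), on 10 UMIs (WT) and 63 UMIs (DB). Macrophages had 102.2 CPM (WT) and 475.1 CPM (DB) of Ctsk at 21 weeks, and the part of free RNA was not tested. Ctsw, a cathepsin of cytotoxic lymphocytes, had a ratio of -1.70. Lgmn, an asparagine-specific protease gene, followed at -0.72. Over all 10209 genes, 4.05% were at least 2-fold higher and 3.78% at least 2-fold lower, against 2 and 1 of these 10. Of other cysteine protease inhibitors, 3 of 11 in the files reached 50 UMIs, with ratios of 0.71 for Cstb, 0.03 for Cst3 and -0.52 for Cst7. The aspartic cathepsins had -0.77 (Ctsd) and 0.09 (Ctse), and the 8 placental cathepsins of the same gene cluster had 0 UMIs in ILC2 of every library. Of 5 TGF-beta genes, 4 were measured and 0 were higher, with -0.90 for Tgfbr1, -0.77 for Tgfb1, -0.52 for Foxp3 and -0.30 for Tgfbr2 and a median of -0.66 against -0.04 over all genes. Foxp3 rested on 18 and 34 UMIs, and its interval of -1.39 to 0.39 included 0. Of 25 ILC2 genes, 12 were higher and 11 lower, with 2 at least 2-fold higher (Calca at 2.85 and Il10 at 1.03) and 2 at least 2-fold lower (Tcf7 at -1.35 and Il17rb at -1.25), of the 23 that reached 50 UMIs.

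The genes most like the pair were ranked by Pearson correlation of log2(CPM + 1) over 61 sums, each of 1 type in 1 library, among 12935 genes. The sums share libraries, depth and free RNA, so the correlations are descriptions. For Ctla2a the highest included Sytl3 (0.872), Ctla2b (0.864), the adaptor gene Skap1 (0.852) and the endosomal GTPase gene Rab4a (0.845). For Ctla2b the 5 highest were 4930486L24Rik (0.872), Ctla2a (0.864), Prkar1a (0.829), Kif13b (0.829) and Sytl3 (0.821). 4930486L24Rik is the next gene along the chromosome, at chr13:60842612-60864475 on the same strand and 30874 bases from Ctla2b, and 0 of its 50-base stretches are in either gene. Its level in ILC2 was 23.28, 28.03, 26.74 and 62.21 CPM, highest in 21-week-DB as for the pair.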

How the data were processed

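The authors aligned reads to mm10 with Cell Ranger (per the labels and file headers 5.0.0 for the 12-week libraries and 6.0.0 for the 21-week libraries, so the version cannot be told apart from age) and deposited UMI counts per gene and barcode, with 1 library per condition. The counts had no normalization. Here, a barcode was kept if it had 200 genes or more and no more than 10% mitochondrial UMIs, with no doublet removal, and counts were summed per library and gated type. Log2 ratios carry exact conditional binomial intervals. No test between conditions was made, since 1 library per condition leaves no spread. The members and lists were chosen with earlier results of these data known, and the gate limits were set after the data were seen. Named beside the pair are Gata3, Il13, Il5, Il1rl1 and Ctsl, the 2 largest and 2 smallest ratios of each list, the 5 most correlated genes (at least 200 UMIs, types with at least 20 cells) and the genes with extreme ratios in ILC2 (at least 100 CPM and 50 UMIs). The result of 1 gene is not reported here. Background shares count genes with at least 50 UMIs. Alternatives were limits of 500 genes and of 5% mitochondrial UMIs, doublet removal, size factors, thinning, clusters in place of gates, a stricter ILC2 gate and subtraction of free RNA. Code was tested on simulated data. Python 3.11.15, numpy 2.4.6, scipy 1.17.1, pandas 2.3.3, scikit-learn 1.9.0, python-igraph 0.11.9, biopython 1.88 and matplotlib 3.10.9 were used.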

Additional observations from a re-analysis of the deposited data

Results flagged for a closer look

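In DETC and in macrophages the 12-week and 21-week log2 ratios of DB to WT had opposite signs. In DETC they were -0.46 and 0.11 for Ctla2a and -0.48 and 0.63 for Ctla2b. In macrophages they were -0.43 and 1.76 for Ctla2a and -0.86 and 0.63 for Ctla2b. No expression of Ctla2a over all macrophages was read above. The difference between ages was not tested, since each condition is 1 library. The barcodes left out by the filters (727, 911, 938 and 417 WT and DB at 12 weeks, then WT and DB at 21 weeks) also held both genes. Their Ctla2a was 142.0, 282.6, 448.3 and 1748.0 CPM and their Ctla2b 16.24, 34.49, 24.17 and 93.21 CPM, again highest in 21-week-DB.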

How the results depend on the processing

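None of the ratios recomputed here, those over all cells at 21 weeks, those in ILC2 and that of the ILC2 shares, changed sign. The types with little Ctla2a did not all keep theirs, as given above for neutrophils and migratory dendritic cells. The 21-week ratio over all cells, 2.16 for Ctla2a and 2.22 for Ctla2b in log2, was 2.79 and 2.65 with at most 5% mitochondrial UMIs, 1.96 and 2.02 with median-of-ratios size factors, and 1.98 and 2.04 with cells thinned to 2000 UMIs. Alternatives chosen after seeing the data gave 1.95 and 1.81 without ILC2, and 1.83 and 1.79 without ILC2 and mast cells. In ILC2 at 21 weeks, Ctla2a moved from 0.73 to 0.82 (5% limit), 0.78 (size factors) and 0.80 (stricter gate), and Ctla2b from 1.43 to 1.73 (5% limit). In ILC2 at 12 weeks, Ctla2a moved from 0.58 to 0.50 (5% limit) and 0.65 (stricter gate), and Ctla2b from 0.67 to 0.91 (stricter gate). The 21-week log2 ratio of ILC2 shares moved from 1.44 to 2.45 (5% limit), 1.28 (stricter gate) and 1.62 (mast cells left out of the cells counted, chosen after seeing the data). The move at the 5% limit follows from the parts of cells that met it, given above. Why those parts differed, and the causes of the other moves, were not tested. Counts of genes at least 2-fold apart in ILC2 with 1 UMI in each library as the only minimum were 483 higher and 1482 lower at 12 weeks (116 and 123 with 50 UMIs) and 926 higher and 1607 lower at 21 weeks (413 and 386), as more genes of few UMIs enter. The 5 genes most like each member shared 3 to 5 names when another pseudocount was used or a library was left out. No paired analysis was possible because each condition is 1 library with no replicate number. Depth limits types with few cells and the shallow mast cells, where Ctla2b rests on 19 to 236 UMIs.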
